A study of Mus musculus with 10 samples.

Results

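Ephx2, the soluble epoxide hydrolase, stood 1.45-fold higher in the aorta of Npas2 mutant mice than in wild-type aorta, and of the 10 tested probe sets of the genes described here it was the 1 that passed the test. The genes described are epoxide hydrolases and enzymes and receptors of vascular eicosanoid metabolism: Ephx1, Ephx2, Cyp2j6, Ptgs1, Ptgs2, Ptgis, Ptges, Ptgds, Tbxa2r and Alox5ap. They were chosen by name, with the difference of Ephx2 in these same arrays already known. The values of Ephx2 are therefore a description of what led to the choice, and no count over these genes supports it. All probe sets that the platform's annotation gives to a listed gene alone were taken, 14 of the 45037 probe sets on the array that are not controls. They cover 9 of the 10 genes, since no probe set was named for Ptgs1 in the annotation used.

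RNA came from whole aorta of male mice and was hybridised to Affymetrix MOE 430V2 arrays, a platform that covers the mouse genome. The wild-type group (5 arrays) is of strain C57Bl/6, and the mutant group (5 arrays) carries an Npas2 mutation on a C57Bl/6J background. Both groups had lived for at least 2 weeks in 12 h of light and 12 h of dark, then for at least 30 h in constant darkness, and were killed at zeitgeber time 14 h. Vessels were flushed through the heart with saline before dissection. The age of the mice, the kind of mutation and whether each array is a separate animal were not stated, so the p-values speak only of how these arrays vary. The single contrast in the design is mutant against wild type, and the question was which transcripts differ between them. Any difference of background between the groups goes with the mutation and cannot be told apart from it.

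Npas2 itself read low and does not check the labels. Its brighter probe set gave means of 3.71 ± 0.24 and 3.43 ± 0.03 (SD, 5 arrays each) in wild-type and mutant aorta, with a limma adjusted p of 0.249. Contractile smooth muscle markers were high on every array, with a list mean between 10.60 and 11.06 on the log2 scale, as were adipocyte markers, between 9.72 and 10.17. Skeletal muscle markers differed widely between arrays, from 3.26 to 11.04, and 4 arrays (wild type F16 and mutants F12, F19 and F20) held most of that signal. The mutant mean was the higher for all 11 of these markers (median change 1.59), with list means of 5.80 in wild type and 7.38 in the mutant, 0 at an unadjusted limma p under 0.05, and the groups overlapped. In such whole tissue, fewer cells of a type and less RNA per cell cannot be told apart.

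Eicosanoids are signalling lipids made from arachidonic acid, which phospholipases release from membranes. Cytochrome P450 epoxygenases turn it into epoxyeicosatrienoic acids, which relax many vessels, and the soluble epoxide hydrolase opens their epoxide ring. Cyclooxygenases make prostaglandin H2, which terminal synthases convert to prostacyclin, prostaglandins or thromboxane, while 5-lipoxygenase with its activating protein opens the leukotriene branch. Npas2 pairs with Bmal1 and binds the E-box, CACGTG. PAR bZIP factors, themselves clock outputs, bind the D-box, TTATGTAA.

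Windows of 250 bases before to 50 bases after annotated gene starts, from RefSeq on GRCm38.p6, were searched on both strands for these motifs. The E-box occurred in 7.15% of 32851 windows of the genome, the related CACGTT in 4.68% and the D-box in 0.938%. Windows were at hand for 7 of the genes (8 windows), and Ephx2, Ptgis and Alox5ap were not searched. An E-box occurred in the windows of Ptgs2 and Cyp2j6 and a D-box in that of Ptgds, and CACGTT in none of the 8. The matches are shown with 30 bases each, since they are the places where a listed gene carries a clock motif close to its start. The motif is in capitals. A match is a description and not a binding site.
Ptgs2: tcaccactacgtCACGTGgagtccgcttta
Cyp2j6: aagagctctgtgCACGTGatcaggggttct
Ptgds: gctggaacctcTTACATAAttagcagatga
The Ptgs2 stretch lies at chr1:150100035-150100064 (plus strand) and its motif begins 16 bases after the start. That of Cyp2j6 lies at chr4:96553678-96553707 (minus strand), with the motif 44 bases before the start. That of Ptgds lies at chr2:25469872-25469901 (minus strand), 141 bases before the start, with the D-box on the opposite strand.

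Of the 14 probe sets 10, from 8 genes, were bright enough to test. In the fit over all 22340 tested probe sets 1 of these 10, or Ephx2, had a limma adjusted p under 0.05, where 0.215% of all tested probe sets did. The groups did not overlap on 1 of the 10, again Ephx2, against 4.01% of all. An unadjusted p under 0.05 was found for 2, Ephx2 and Ptgis, against 15.3% of all. The mean was higher in the mutant on 5 of the 10, beside 42.4% of all, with a median change of 0.00, beside -0.03 over all tested probe sets. The 4 other probe sets, the 3 of Ptges and the dimmer of Ptgds, read at most 2.98 on any array, where array medians lay between 3.14 and 3.20.

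**Figure D1:**
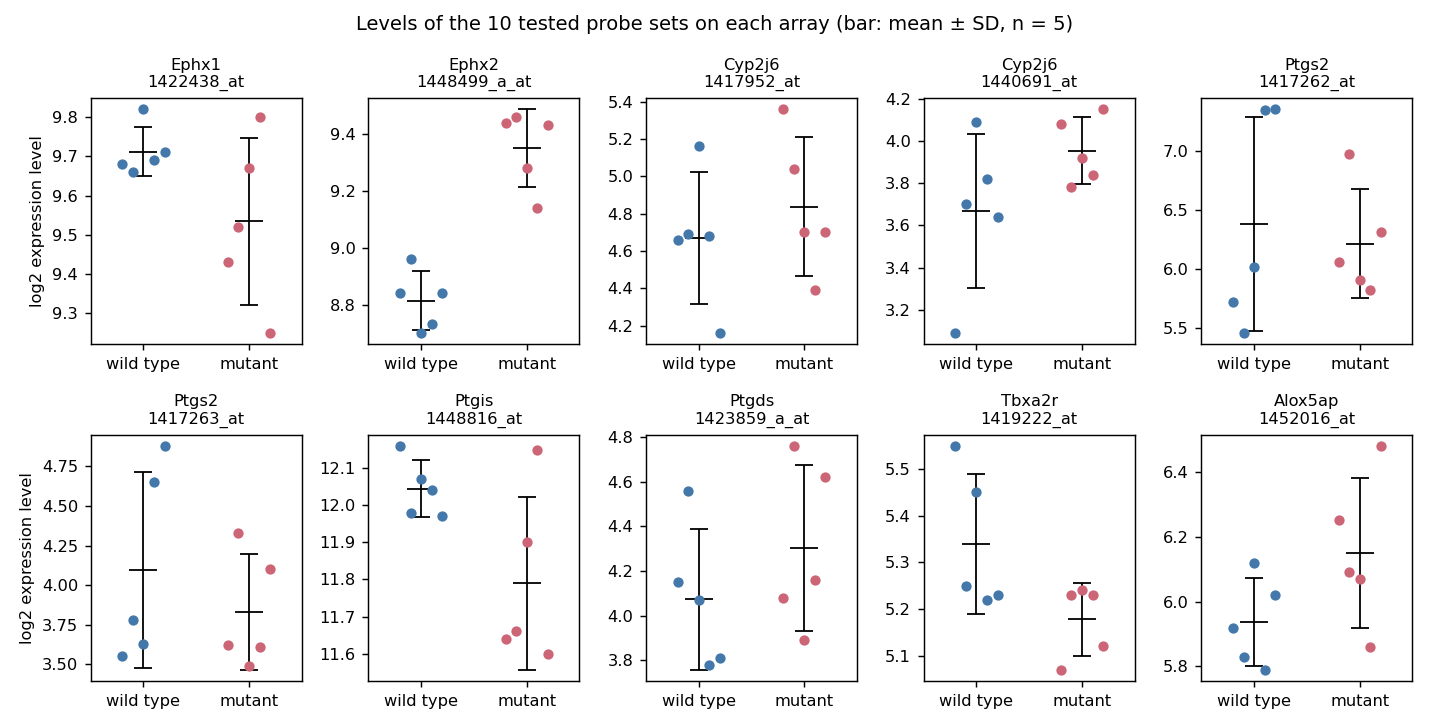
Log2 expression level (vertical axis) of the 10 tested probe sets on the 5 wild-type (blue) and 5 mutant (red) arrays, each point an array and each bar the mean ± SD. Ephx2 is the panel in which the groups separate, with mutant arrays from 9.14 to 9.46 and wild-type arrays from 8.70 to 8.96.

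Ephx2 encodes the soluble epoxide hydrolase, an enzyme of cytosol and peroxisomes that converts epoxyeicosatrienoic acids to less active diols. Its single probe set, 1448499_a_at, read 8.84 on wild-type array F11, 8.96 on F14_2, 8.70 on F15, 8.73 on F16 and 8.84 on F17. On the mutant arrays it read 9.44 on F12, 9.46 on F13, 9.28 on F18, 9.14 on F19 and 9.43 on F20. Every mutant array was above every wild-type array, with a gap of 0.18 between the lowest mutant and the highest wild-type value. The means were 8.81 ± 0.10 (SD, n = 5) and 9.35 ± 0.14 (SD, n = 5), so Ephx2 rose by 0.54 ± 0.08 (SE) on the log2 scale, with a 95% interval from 0.36 to 0.71 and a limma adjusted p of 0.0306. By size the rise was modest: 347 of the tested probe sets had a larger absolute difference, and 4 of the 21 probe sets called higher had a smaller one. Its spread within groups was small, below that of all but 29.9% of tested probe sets.

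The size of the Ephx2 difference varied little when single arrays were left out, between 0.51 and 0.59, but the call did not hold in most of these fits. It passed without wild type F14_2 (adjusted p = 0.0332) and without mutant F19 (adjusted p = 0.0359), and in the other 8 fits, without wild type F11, F15, F16 or F17 or mutant F12, F13, F18 or F20, the adjusted p lay between 0.0542 and 0.0894. With the 4 muscle-rich arrays left out, the difference was 0.53 ± 0.10 (SE, adjusted p = 0.513), in a fit that called 0 probe sets in all. That fit, also given for other genes below, compared wild type F11, F14_2, F15 and F17 with mutants F13 and F18 alone.

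**Figure D2:**
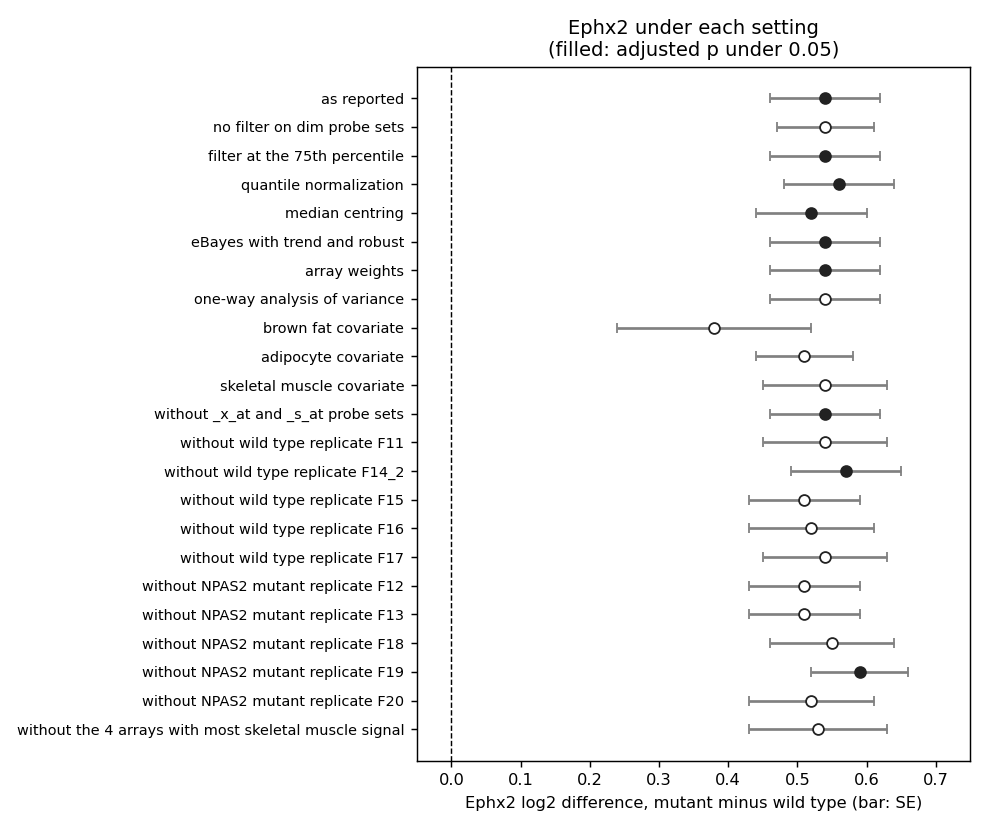
Log2 difference of Ephx2 between mutant and wild type (horizontal axis, bar SE) under each setting, as reported and with each choice changed, filled where the adjusted p is under 0.05. The estimates lie between 0.51 and 0.59 except with the brown fat marker mean as a covariate, where it is 0.38.

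Brown fat markers also tended to be higher on the mutant arrays. Of 14 markers 12 were bright enough to test, 9 of them with a higher mean in the mutant, 6 at an unadjusted p under 0.05 and 0 after limma adjustment, with a median change of 0.35. The mean of these markers lay between 7.59 and 8.05 on wild-type arrays and between 8.20 and 8.62 on mutant arrays, with no overlap. Ucp1, the uncoupling protein that defines brown fat, had means of 11.42 ± 0.52 and 12.42 ± 0.29 (SD, 5 arrays each) in wild-type and mutant aorta. Its limma adjusted p was 0.121. The markers did not rise as one. Elovl3 differed most, by 2.57 (limma adjusted p = 0.111), while Ppargc1a differed by 0.02. Those with a lower mean in the mutant were Prdm16 (-0.27), Ebf2 (-0.02) and Lhx8 (-0.11). Among the mutant arrays F12, F13 and F20 had the 3 highest brown fat means and also the 3 highest Ephx2 levels. The same arrays had the highest adipocyte means in the mutant (F12 10.08, F13 10.17, F20 9.93). Wild-type arrays did not keep this order. F17 had the lowest brown fat mean (7.59) with Ephx2 at 8.84, and F15, lowest for Ephx2 (8.70), had a brown fat mean of 7.97. With the brown fat mean as a covariate the Ephx2 difference was 0.38 ± 0.14 (SE, limma adjusted p = 0.621), with a wider error because the covariate itself separates the groups. With the adipocyte marker mean as a covariate it was 0.51 ± 0.07 (SE, limma adjusted p = 0.0507). Of 10 adipocyte markers tested 8 had a higher mean in the mutant and 0 were called, with 4 at an unadjusted limma p under 0.05, and the list means overlapped between the groups.

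The genes whose levels followed Ephx2 most closely were sought over the 10 arrays after each group's mean was removed, so that the difference between groups played no part. They were Sephs2 (Pearson r = 0.962), a selenophosphate synthetase, Slc25a42 (0.949), a mitochondrial carrier of coenzyme A, Atp5h (0.937), a subunit of ATP synthase, Tctex1d2 (0.936) and Hadh (0.934), a dehydrogenase of mitochondrial fatty acid oxidation. Leaving out any 1 array kept these r values between 0.895 and 0.975. They are the 5 highest of all genes tested, each gene taken by its probe set of highest r and not by its brightest. A gene with several probe sets thus had more chances to rank high. The r values describe these arrays, with no test. None of the 5 probe sets passed limma, with adjusted p between 0.246 and 0.615.

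Ephx1 encodes the microsomal epoxide hydrolase, which opens epoxides of drugs and pollutants and, with a lesser part, of fatty acids. It read 9.68 on F11, 9.66 on F14_2, 9.82 on F15, 9.69 on F16 and 9.71 on F17 in wild type. In the mutant it read 9.43 on F12, 9.52 on F13, 9.67 on F18, 9.80 on F19 and 9.25 on F20. The wild-type arrays lay close together, and the mutant arrays spread from below them (F12, F13, F20) to within their range (F18, F19). The difference was -0.18 ± 0.10 (SE, 95% interval -0.39 to 0.03, limma adjusted p = 0.384), so the interval for Ephx1 does not reach the rise seen for Ephx2. Without mutant F20, the lowest array, the Ephx1 difference was -0.11.

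Cyp2j6 encodes an epoxygenase of the Cyp2j family. Its brighter probe set, 1417952_at, ranged from 4.16 (F17) to 5.16 (F15) in wild type and from 4.39 (F19) to 5.36 (F12) in the mutant, with overlap over most of the range. The difference was 0.17 ± 0.20 (SE, limma adjusted p = 0.705), and it was 0.04 without wild type F17 or without mutant F12, 0.29 without wild type F15 and 0.28 without mutant F19. The dimmer one, 1440691_at, read 3.09 on F11, 3.70 on F14_2, 4.09 on F15, 3.82 on F16 and 3.64 on F17 in wild type, and 4.08 on F12, 3.78 on F13, 3.92 on F18, 3.84 on F19 and 4.15 on F20 in the mutant. Its difference was 0.29 ± 0.16 (SE, 95% interval -0.07 to 0.64, limma adjusted p = 0.404), and 0.14 without wild type F11, the lowest array. With the brown fat covariate the probe sets of Cyp2j6 went apart, to -0.61 ± 0.27 (SE, limma adjusted p = 0.659) on 1417952_at and 0.35 ± 0.31 (SE, limma adjusted p = 0.826) on 1440691_at. Probe sets for Cyp2j genes may read near-identical family members, so signal cannot be assigned to Cyp2j6 with certainty.

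Ptgs2 encodes the inducible cyclooxygenase, and it was the most variable of these genes. On probe set 1417262_at it read 5.72 on F11, 5.46 on F14_2, 6.02 on F15, 7.34 on F16 and 7.35 on F17 in wild type. In the mutant it read 6.06 on F12, 6.97 on F13, 5.91 on F18, 5.82 on F19 and 6.31 on F20. Wild type F16 and F17 and mutant F13 were the 3 highest, and the same 3 arrays were highest on the other probe set, 1417263_at, at 4.65, 4.88 and 4.33, so the variation was seen by both. The spread within groups exceeded that of 99.3% and 98.6% of tested probe sets. The differences were -0.17 ± 0.39 (SE, limma adjusted p = 0.859) and -0.27 ± 0.28 (SE, limma adjusted p = 0.657). The 95% interval of the first, -1.04 to 0.70, includes a change of the size seen for Ephx2 in either direction. Its sign rested on single arrays: the difference was 0.07 without wild type F16 and 0.08 without wild type F17, and down to -0.40 without wild type F14_2. On 1417263_at the difference was -0.13 without wild type F16, -0.07 without wild type F17 and -0.05 without the 4 muscle-rich arrays.

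Ptgis encodes prostacyclin synthase, which makes the vasodilator prostacyclin in the vessel wall. Its probe set 1448816_at read 12.16 on F11, 11.98 on F14_2, 12.07 on F15, 12.04 on F16 and 11.97 on F17 in wild type. In the mutant it read 11.64 on F12, 11.66 on F13, 11.90 on F18, 12.15 on F19 and 11.60 on F20. Of the 5 mutant arrays 4 were below all wild-type arrays, while F19 was above all but 1. The difference was -0.26 ± 0.10 (SE, 95% interval -0.49 to -0.03), with an unadjusted limma p of 0.0323 and an adjusted p of 0.277, and it was -0.35 without mutant F19 (limma adjusted p = 0.0943). The mutant arrays F12, F13 and F20, lowest for Ptgis and for Ephx1, were the 3 highest for Ephx2.

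Contractile smooth muscle markers were lower in the mutant in 9 of 10 cases, 5 at an unadjusted p under 0.05 and 0 after limma adjustment, with a median change of -0.21. Their mean lay between 10.77 and 11.06 on wild-type arrays and between 10.60 and 10.89 on mutant arrays, with F13 and F20 lowest. Mutant F12, also low for Ptgis, had a marker mean of 10.85, above that of wild type F15 (10.77). The part of smooth muscle in the Ptgis difference was not tested. With the brown fat covariate the difference of Ptgis was -0.12 ± 0.20 (SE, limma adjusted p = 0.908) and that of Ephx1 -0.03 ± 0.18 (SE, limma adjusted p = 0.983). The covariate itself separates the groups, which widens these errors, and the part of brown fat was not tested.

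**Figure D3:**
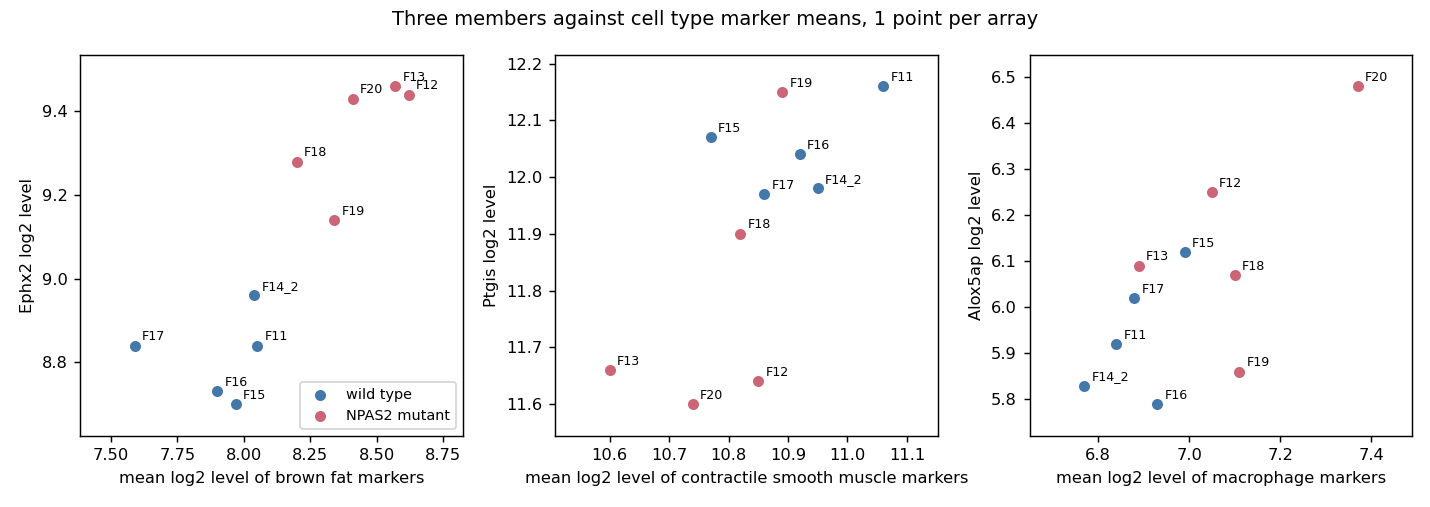
Log2 level of Ephx2, Ptgis and Alox5ap (vertical axes) against the mean log2 level of brown fat, contractile smooth muscle and macrophage markers (horizontal axes), each point an array with its replicate name, blue for wild type and red for mutant. The brown fat means of the groups do not overlap (up to 8.05 in wild type, from 8.20 in the mutant), while the other marker means do.

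Ptgds, which makes prostaglandin D2, gave 3.78 to 4.56 in wild type and 3.89 to 4.76 in the mutant on its brighter probe set 1423859_a_at. The difference was 0.23 ± 0.19 (SE, limma adjusted p = 0.575), and the groups overlapped over most of their range. It was 0.11 without mutant F13, 0.15 without wild type F16 or without mutant F20, and 0.35 without wild type F14_2. Its dimmer probe set, 1423860_at, read between 2.27 and 2.98 on all arrays, and an exact two-sided permutation test over arrays gave p = 1. Wild type F14_2 alone read 2.98 there. The other wild-type arrays read 2.27 to 2.30 and the mutant arrays 2.30 to 2.37, so the test does not show that the groups were equal. Ptges, the inducible prostaglandin E synthase, read between 2.15 and 2.59 on its 3 probe sets on all 10 arrays. The differences were 0.09, 0.04 and 0.01, with exact two-sided permutation p of 0.373, 0.286 and 0.111, so no difference of Ptges was detectable at these levels.

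Tbxa2r encodes the thromboxane receptor, through which thromboxane contracts smooth muscle and activates platelets. It read 5.55 on F11, 5.25 on F14_2, 5.45 on F15, 5.22 on F16 and 5.23 on F17 in wild type, and 5.07 on F12, 5.23 on F13, 5.24 on F18, 5.23 on F19 and 5.12 on F20 in the mutant. Wild type F11 and F15 were the highest, and the other 3 wild-type arrays lay beside the mutant ones. The difference was -0.16 ± 0.08 (SE, 95% interval -0.34 to 0.01, limma adjusted p = 0.349). Platelet markers, of which 4 of 7 were bright enough to test, had the same mean of 5.56 in both groups. Of these, 2 were higher and 2 lower in the mutant, 1 at an unadjusted limma p under 0.05. Their mean varied between arrays, from 5.06 to 5.97 in wild type and from 5.14 to 5.93 in the mutant. The part of platelets in the Tbxa2r difference was not tested.

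Alox5ap encodes the 5-lipoxygenase activating protein, which presents arachidonic acid to 5-lipoxygenase and is known from macrophages and other myeloid cells. It read 5.92 on F11, 5.83 on F14_2, 6.12 on F15, 5.79 on F16 and 6.02 on F17 in wild type, and 6.25 on F12, 6.09 on F13, 6.07 on F18, 5.86 on F19 and 6.48 on F20 in the mutant. Mutants F20 and F12 were above all wild-type arrays and the rest overlapped. The difference was 0.21 ± 0.11 (SE, 95% interval -0.03 to 0.46, limma adjusted p = 0.378), and it was 0.13 without mutant F20 and 0.11 without the 4 muscle-rich arrays. Macrophage markers were higher in the mutant in 9 of 10 cases, 4 at an unadjusted p under 0.05 and 0 after limma adjustment, with a median change of 0.20. Their mean ran from 6.77 to 6.99 in wild type and from 6.89 to 7.37 in the mutant. Mutant F20 was highest for both the markers and Alox5ap. Mutant F19 had the next highest marker mean (7.11) but the lowest Alox5ap level of the mutant arrays (5.86). The part of macrophages in the Alox5ap difference was not tested.

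**Figure D4:**
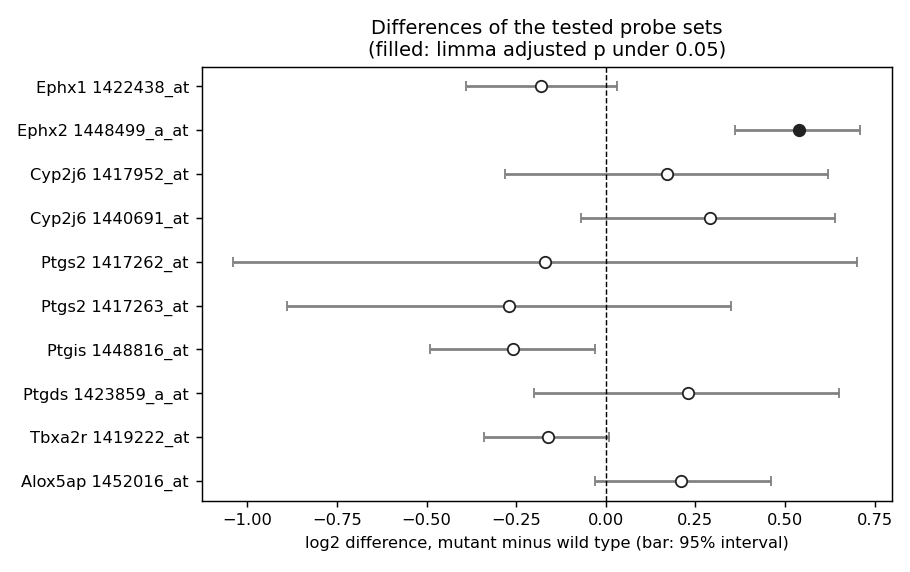
Log2 difference between mutant and wild type (horizontal axis) for the 10 tested probe sets, with 95% intervals from the limma fit, filled where the adjusted p is under 0.05. Ephx2 at 0.54 is the filled point, and the intervals of all others except Ptgis (-0.49 to -0.03) include 0.

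The rest of the pathway was followed through 101 further genes in 7 lists, of which 82 had a probe set and 32 were bright enough to test. By limma 0 of the 32 passed, beside 0.183% of all 10945 genes taken by their brightest probe set, and 2 had an unadjusted p under 0.05, against 1646 of all 10945 genes tested, or 15%. An ordinary one-way analysis of variance also called 0. The mean was higher in the mutant for 20 and lower for 12, where it was higher for 44.1% of all genes, with a median change of 0.06 beside -0.02 over all genes.

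Phospholipases A2 held both genes with a low unadjusted p. Pla2g7, a secreted enzyme that breaks down platelet-activating factor and is known from macrophages, had 5.98 to 6.47 in wild type and 6.46 to 7.24 in the mutant, with the groups just touching. Its difference was 0.64 ± 0.16 (SE, limma adjusted p = 0.125), and 0.08 ± 0.24 (SE, limma adjusted p = 0.955) with the brown fat covariate. Because that covariate itself separates the groups, brown fat and mutation cannot be told apart here. Pla2g12a, a secreted phospholipase A2, had a difference of 0.37 ± 0.14 (SE, limma adjusted p = 0.261), and -0.02 with that covariate, 0.23 without mutant F12 and 0.17 without the 4 muscle-rich arrays. Of the 10 phospholipases tested 7 had a higher and 3 a lower mean.

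Among 8 prostanoid synthesis, breakdown and transport genes, 6 were higher and 2 lower. Ptges2, a membrane-associated prostaglandin E synthase, differed by 0.29 ± 0.17 (SE, limma adjusted p = 0.428) and Slco2a1, the prostaglandin uptake carrier, by -0.33 ± 0.20 (SE, limma adjusted p = 0.447). The difference of Ptges2 was 0.16 without mutant F12, and that of Slco2a1 was -0.13 without mutant F20 and -0.09 without the 4 muscle-rich arrays. The prostanoid receptor list gave 1 higher and 4 lower means in 5 tested genes, 1 of them Ptgfrn (-0.10), which encodes a regulator of the prostaglandin F receptor and not a prostanoid receptor. Ptger3, a receptor for prostaglandin E2, differed by -0.35 ± 0.20 (SE, limma adjusted p = 0.413) and Ptgfr, the prostaglandin F receptor, by -0.16 ± 0.15 (SE, limma adjusted p = 0.594). The difference of Ptger3 was -0.20 without wild type F15 and -0.14 without the 4 muscle-rich arrays, and that of Ptgfr was -0.07 when wild type F11 was left out and -0.08 when F16 was. Ptgfr read low, 3.25 to 3.87 in wild type and 3.22 to 3.63 in the mutant.

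The leukotriene list gave 3 higher and 2 lower means in 5 genes, among them Dpep1, a dipeptidase that converts leukotriene D4, at 0.15 (limma adjusted p = 0.398), and Mgst2, a microsomal glutathione transferase, at 0.23 (limma adjusted p = 0.423). Mgst2 was at 0.09 without mutant F13, and without the 4 muscle-rich arrays Mgst2 was at 0.39 and Dpep1 at 0.27. Of 7 lipoxygenases Alox12 alone was bright enough to test, at 0.08 (limma adjusted p = 0.879), with -0.05 without wild type F17, -0.08 without mutant F13 and 0.37 without the 4 muscle-rich arrays. It read 3.24 to 4.23 in wild type and 3.41 to 4.49 in the mutant. Alox5, the partner of the Alox5ap protein, was among the 6 too dim to test. Of 26 further P450 genes with a probe set 3 were tested, among them Cyp4f13 at 0.14 (limma adjusted p = 0.349) and Cyp2j9, a relative of Cyp2j6, at -0.35 (limma adjusted p = 0.430). Cyp2j9 was at -0.18 without wild type F16, and without the 4 muscle-rich arrays Cyp2j9 was at -0.15 and Cyp4f13 at 0.09. The level of Cyp2j9 was 3.06 to 4.20 in wild type and 3.07 to 3.24 in the mutant, close to the array medians. The other epoxide hydrolases, Ephx3 and Ephx4, were too dim to test.

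**Figure D5:**
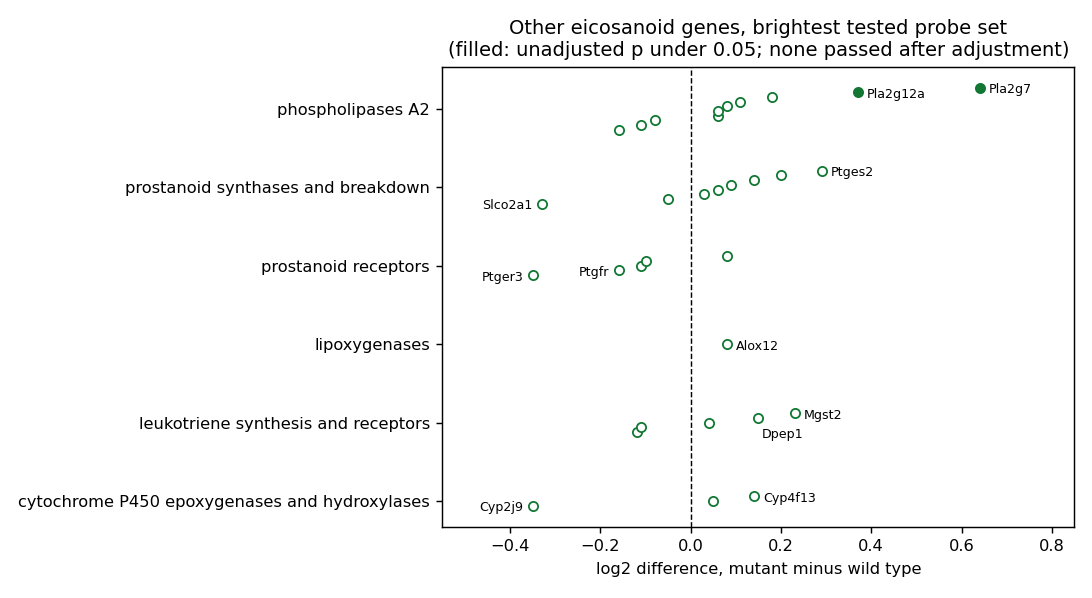
Log2 difference between mutant and wild type (horizontal axis) of the 32 tested genes of the wider pathway, each point a gene by its brightest probe set, in rows by list and filled where the unadjusted p is under 0.05. Pla2g7 at 0.64 and Pla2g12a at 0.37 are the filled points.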

How the data were processed

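The authors deposited log2 expression values, 1 per probe set and array, already normalised between arrays. GCRMA and MAS5 appear as tools in the submitters' processing notes, without saying which made the table, and the log2 scale was read from the values (1.10 to 14.74). Upper quartiles per array lay between 5.40 and 5.55. No dates were at hand, so batches could not be examined, and the groups share no replicate names. Names came from the platform's annotation, which is old, and were updated by gene identifier to GRCm38.p6. Of 45101 probe sets 34958 had a single gene, 932 several and 9211 none.

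Probe sets above their array's median on at least 5 of 10 arrays were tested with limma 3.58.1 in R 4.3.3 (lmFit, eBayes, two-sided, Benjamini-Hochberg over all tested probe sets, threshold 0.05). The limma fit and the one-way analysis were checked on simulated data, with independent probe sets and a covariate unrelated to group. That check does not cover signals shared between probe sets or a covariate that separates the groups. Errors with ± are SD over arrays or the moderated SE, as marked. Dimmer probe sets of the listed genes got exact permutation tests. A marker list's level is the mean of its tested genes, each by its brightest probe set. The genes, the pathway and marker lists and the tests were chosen with earlier results of these data known. All listed genes are named, with the 2 tested genes of lowest p in each pathway list and the 5 genes most like Ephx2. Alternatives covered filter, scaling, variance model, array weights, one-way analysis, covariates, shared-probe suffixes and single arrays, and leaving out the 4 muscle-rich arrays was added after seeing the data.

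Marker lists not described in the text overlapped between the groups: endothelial (median change 0.04), adventitial fibroblast (0.03), mast cell (0.03), neutrophil (-0.22), mesothelial (0.28) and Schwann cell (0.02), with 0 of their tested genes called by limma.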

Additional observations from a re-analysis of the deposited data

Results flagged for a closer look

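Of 50 groups of 5 arrays examined over the named probe sets, 6 had 1 array far from the other 4, where chance alone flags about 1 in 20, or 2.50. Among the listed genes they were all on dim probe sets. Ptgds 1423860_at read 2.98 on wild type F14_2 (others up to 2.30) and 2.37 on mutant F13 (others up to 2.32). Ptges read 2.46 on mutant F12 on 1449450_at (others from 2.56) and 2.58 on mutant F18 on 1449449_at (others up to 2.43). In the wider pathway Ptgfr read 3.63 on mutant F19 (others up to 3.29), and Mgst2 read 5.14 on mutant F13 (others up to 4.53).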

How the results depend on the processing

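Ephx2 stayed higher in the mutant under every alternative run, but most of these could not turn its sign. The filters, the suffix choice, the variance model, the one-way analysis and the threshold do not alter the difference. Since the groups did not overlap, array weights or leaving out arrays could not reverse it either. Ephx2 kept its call with a filter at the 75th percentile, quantile normalisation, median centring, the trended robust variance model, array weights and without probe sets of shared suffix. It lost the call, with 0 of the listed probe sets called, without a filter (0.54, adjusted p = 0.0674), by one-way analysis of variance (0.54, adjusted p = 0.0921) and with the brown fat (0.38), adipocyte (0.51) or skeletal muscle covariate (0.54, adjusted p = 0.0719). The same held without the 4 muscle-rich arrays (0.53). Leaving out single arrays gave 0.51 to 0.59 and 0 to 1 called probe sets of these genes. At an adjusted p of 0.1 the count stayed at 1.

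Over all probe sets 48 were called. The count was 17 without a filter, 141 with the 75th percentile, 13 by one-way analysis, 14 and 7 with the adipocyte and skeletal muscle covariates, 0 with the brown fat covariate and without the muscle-rich arrays, 191 at an adjusted p of 0.1, and 9 to 43 without single arrays. The brown fat covariate itself separates the groups, which widens the errors of that fit.

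Of 20 other named changes 13 kept their sign and 0 were called under any alternative. With the brown fat covariate the sign turned for Cyp2j6 1417952_at (-0.61), Ptgs2 (0.56 on 1417262_at, 0.28 on 1417263_at), Ptgds (-0.33), Pla2g12a (-0.02), Ptges2 (-0.26) and Alox12 (-0.55). Ptgs2 1417262_at also turned without the muscle-rich arrays (0.30) and ran from -0.40 to 0.08 without single arrays. Alox12 was at 0.00 with the adipocyte covariate and ran from -0.08 to 0.20. The cause was not tested. The 75th percentile filter left out dim probe sets, which have no value there. The number of arrays, 5 in each group, limits the precision. No paired analysis was possible because the groups share no replicate names.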
